A study of Mus musculus with 12 samples.

Results

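Triadin, encoded by Trdn, was measured by 19 of the 28944 transcript clusters on the array, a transcript cluster being a set of probes that are summarized into 1 value. These 19 were all of the transcript clusters whose only annotated gene symbol was Trdn, out of 21789 with a single symbol, and 0 further transcript clusters named Trdn beside another gene. They are given in the order of their identifiers. No probe positions were at hand, so whether this order follows the exons was not checked. The gene was chosen with the difference between RT and RS mice in view, and that difference is therefore given for Trdn as a description. The threshold used for every transcript cluster on the array was applied to Trdn only to sort its members, and carries no evidence for them.

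Muscle of recipients from trained donors (RT, n = 6) was compared with muscle of recipients from sedentary donors (RS, n = 6), to ask how the feces of exercised mice act on the muscle of their recipients. All 12 recipients were male germ-free ICR mice (strain Tsl;ICR[GF], age of 11 weeks in the labels) fed a high-fat diet, and gastrocnemius was taken 1 week after the first gavage. Donors had run on a treadmill in the case of RT and had not in the case of RS. Mice of a group shared cages and received identical fecal samples, so that donor training, fecal sample and cage cannot be told apart, and the errors given here measure the spread between mice alone. RNA from every mouse (250 ng) was run on its own Affymetrix Mouse Gene 1.0 ST array.

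Triadin is a membrane protein of the junctional sarcoplasmic reticulum, the part of the calcium store of a muscle fiber that faces the transverse tubules. Together with junctin it ties the calcium-storing protein calsequestrin to the ryanodine receptor, the channel that releases calcium to start contraction. One gene gives several triadin proteins by alternative splicing and alternative ends, with different forms in skeletal muscle and heart. The comparison asks which of the transcript clusters differed between the groups, whether they moved together from mouse to mouse, and whether the partners of triadin differed too.

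The arrays had median log2 signals between 4.40 and 4.63. The signals of RS-4 and RS-6 spread less widely, with SDs of 1.97 and 1.99 against 2.06 to 2.15 in the remaining mice, and counts without both are given for the calls. Fast-twitch fiber genes, the defining markers of this muscle, were bright on all arrays, with means over 10 genes of 12.19 to 12.26 in RT mice and 12.04 to 12.29 in RS mice, and 0 of the 10 were called in either direction.

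Most Trdn transcript clusters were lower in RT muscle, but not all of them. The difference between RT and RS means was below 0 in 16 of the 19. A transcript cluster was called when limma, fitted over all 28944, gave a p under 0.05 that stayed under 0.1 after Benjamini-Hochberg adjustment. By this rule 13 of the 19 were called lower, where 13.0% of all transcript clusters were, and 0 were called higher, where 11.9% of all were. At an unadjusted p under 0.05 in limma 1 was higher, and the methods' unmoderated test called 0 higher. In 5 of the 19 every RT value lay below every RS value, which held for 3.10% of all transcript clusters, and in 0 of them did every RT value lie above, which held for 2.69%. Since Trdn was chosen by this contrast, nothing is read from these counts. Without RS-4 and RS-6, 12 were called lower, where 1791 of all 28944 were. In whole muscle, fewer cells of a type and less RNA per cell cannot be told apart.

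The median difference in log2 signal was −0.44 over the 19 Trdn transcript clusters and −0.01 over all on the array. The median was −0.54 over the 13 called lower, which spanned −1.35 to −0.23, and 0.04 over the other 6, which spanned −0.33 to 0.22. The transcript clusters that were not called were scattered among those that were called along the order of identifiers. The 6 not called were 10362404, 10362420, 10362432, 10362446, 10362456 and 10362458, which stand singly among the others except for the last 2. Nearest to the threshold were 10362442, called at −0.23, and 10362456, not called at −0.33.

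**Figure D1:**
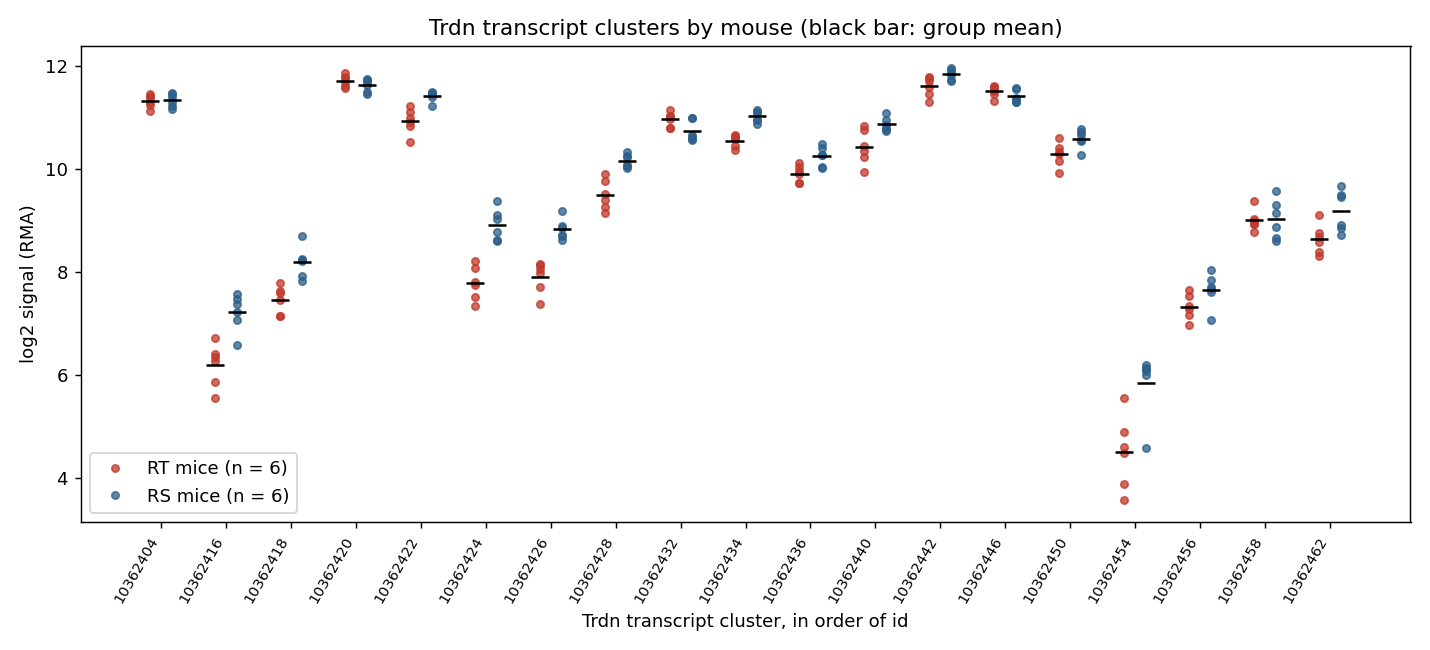
Log2 signal of each of the 19 Trdn transcript clusters in identifier order, with 1 point per mouse, RT mice left of RS mice and a bar at the mean of 6. The values of both groups nearly coincide in 10362404, and lie wholly apart in 10362424, where RT mice reach 8.21 and RS mice start at 8.60.

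Transcript cluster 10362424 had log2 signals of 7.34, 7.78 and 8.21 in RT mice (lowest, median and highest), against 8.60, 8.90 and 9.37 in RS mice. All 6 RT mice lay below all 6 RS mice. The difference was −1.14 (SE 0.15), so that the geometric mean of the RT signals was 45.5% of that in RS. Percentages of the RS signal given below are of the same kind.

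Its neighbor in identifier order, 10362426, had 7.37, 8.02 and 8.16 in RT mice and 8.63, 8.78 and 9.19 in RS mice. The groups did not overlap here either, and the difference was −0.93 (SE 0.13), or 52.5% of the RS signal. Transcript cluster 10362428 ranged from 9.14 to 9.90 in RT mice and from 10.01 to 10.34 in RS mice, with a difference of −0.67 (SE 0.12). The remaining 2 without overlap were 10362418 and 10362434. The first had 7.14, 7.52 and 7.78 in RT mice against 7.82, 8.23 and 8.70 in RS mice, a difference of −0.74 (SE 0.14). The second had 10.37, 10.60 and 10.66 in RT mice against 10.87, 11.03 and 11.14 in RS mice, a difference of −0.47 (SE 0.08). In this last one the groups were narrow, and the smaller difference still left a gap between them.

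The largest difference on the log2 scale was that of the dimmest Trdn transcript cluster, 10362454, with 3.57, 4.55 and 5.55 in RT mice and 4.59, 6.10 and 6.19 in RS mice. The overlap came from RS-4 alone, which read 4.59 while the other 5 RS mice read 6.00 to 6.19. The difference was −1.35 (SE 0.30), or 39.2% of the RS signal, and it was −1.60 without RS-4.

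Transcript cluster 10362416 had 5.56, 6.31 and 6.72 in RT mice and 6.58, 7.30 and 7.57 in RS mice, with a difference of −1.02 (SE 0.18). Only RT-6 reached into the RS values, and RS-4 was again the lowest RS mouse. Transcript cluster 10362422 had 10.53, 10.96 and 11.23 in RT mice and 11.23, 11.46 and 11.49 in RS mice, with a difference of −0.48 (SE 0.10). The groups met at 11.23, and the other 5 RT mice lay below all RS mice.

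In the other 5 that were called the groups overlapped more. Transcript cluster 10362462, the last in order, had 8.31 to 9.11 in RT mice and 8.71 to 9.67 in RS mice, a difference of −0.55 (SE 0.17), which was −0.75 without RS-4 and RS-6. The differences were −0.44 (SE 0.13) in 10362440, −0.34 (SE 0.10) in 10362436, −0.30 (SE 0.11) in 10362450 and −0.23 (SE 0.09) in 10362442. All 5 of these lost the call in at least 1 of the 21 alternative processings or sample sets, and 10362442 was called in 6 of them and 10362450 in 10. Leaving out any single mouse other than RT-5, RT-6 and RS-2 ended the call of 10362442, and leaving out any other than RT-4, RT-5, RT-6 and RS-4 that of 10362450. Without RS-4 and RS-6 the difference of 10362440 was −0.41 and no longer called. The 8 described before them were called lower in all 21.

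The 6 that were not called fell into those close to 0, those slightly above it and 1 below it. The first in order, 10362404, is the only one that the annotation ties to 5 accessions, the other 18 being tied to 1 and the same RefSeq transcript of triadin. It had 11.13, 11.34 and 11.45 in RT mice and 11.16, 11.35 and 11.47 in RS mice, a difference of −0.02 (SE 0.08). The values of the groups lay on top of each other. Transcript cluster 10362458 had 8.77, 8.97 and 9.38 in RT mice and 8.60, 9.01 and 9.57 in RS mice, a difference of −0.02 (SE 0.15), which became −0.22 without RS-4 and RS-6.

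A difference above 0 was seen in 3. Transcript cluster 10362432 had 10.80, 11.00 and 11.14 in RT mice and 10.56, 10.65 and 11.00 in RS mice, a difference of 0.22 (SE 0.10), or 117% of the RS signal. It was not called, but was called higher in 3 of the 21 alternatives. Transcript clusters 10362420 and 10362446 differed by 0.09 (SE 0.08) and 0.10 (SE 0.08) and were called in 0 of the 21. The 1 that lay below 0 without being called was 10362456, with 6.98 to 7.66 in RT mice, 7.06 to 8.03 in RS mice and a difference of −0.33 (SE 0.14). It was called lower in 6 alternatives, among them that without RS-4 and RS-6, where its difference was −0.46.

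**Figure D2:**
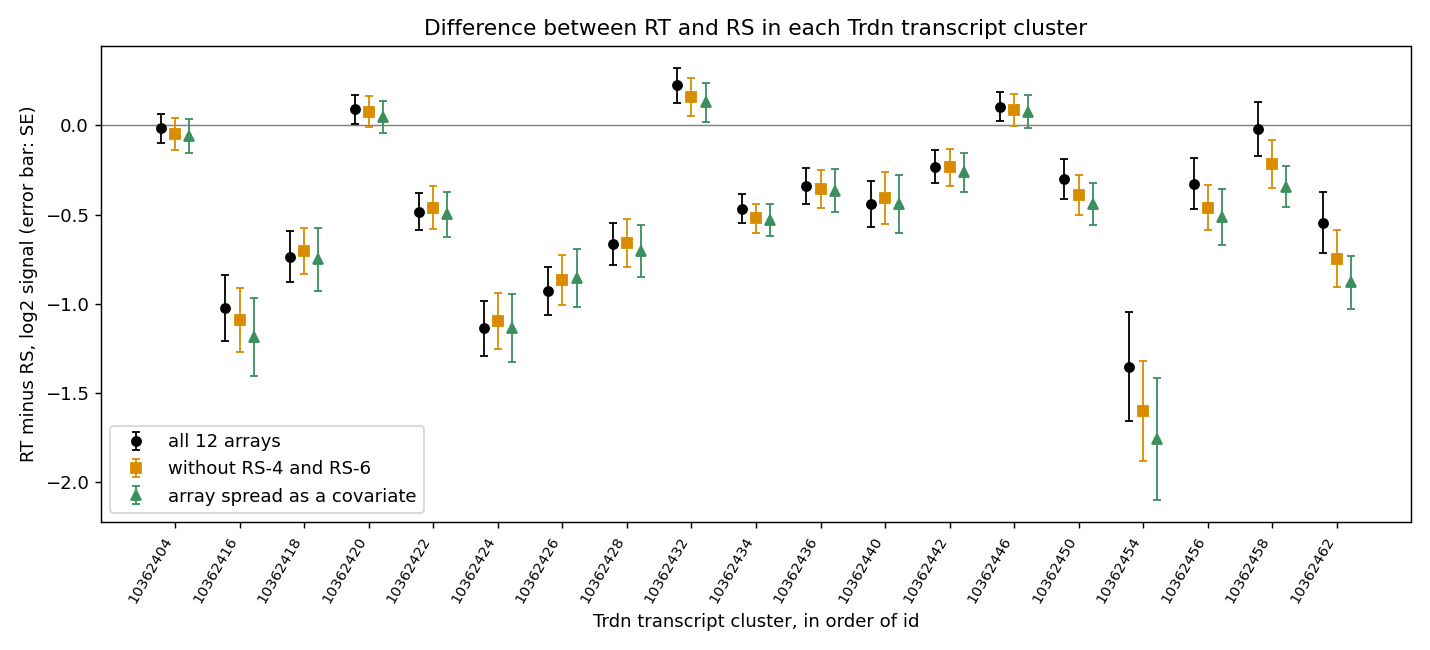
RT minus RS difference in mean log2 signal for the 19 Trdn transcript clusters in identifier order, with limma's standard error. Differences range from −1.35 in 10362454 to 0.22 in 10362432, and those called lower alternate along the order with those that were not called.

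Within an array, the gap between Trdn transcript clusters that follow each other in identifier order is free of any factor that multiplies all signals of the array alike. The sign of a gap has no meaning, since different probes are not comparable in level, but a gap that differs between the groups shows unequal change. The gap between 10362432 and 10362434 was 0.35, 0.41 and 0.48 in RT mice, against −0.43, −0.30 and −0.12 in RS mice. All RT gaps lay above all RS gaps. The same was seen between 10362458 and 10362462, with a gap of 0.23 to 0.63 in RT mice and −0.36 to −0.04 in RS mice. Between 10362420 and 10362422 the gap was 0.59 to 1.09 in RT mice and 0.03 to 0.49 in RS mice. All RT gaps lay below all RS gaps between 10362428 and 10362432, at −1.66 to −1.24 in RT mice and −0.92 to −0.25 in RS mice, and between 10362418 and 10362420, at −4.48 to −4.06 in RT mice and −3.79 to −2.99 in RS mice. These 5 of the 18 adjacent Trdn pairs did not overlap between the groups, while 5.35% of 1851 such pairs within genes across the array did not. The gaps are built from the same contrast and carry no test.

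The size of the difference went with brightness. The 10 Trdn transcript clusters with a mean log2 signal over 10 had differences of −0.48 to 0.22 with a median of −0.27, and 6 of them were called lower. The 9 at or under 10 had differences of −1.35 to −0.02 with a median of −0.74, and 7 of them were called lower. Over the 19 the correlation of difference with mean signal was 0.774 (Pearson) and 0.754 (Spearman), given as a description of transcript clusters that share the same 12 arrays. What brightness has to do with the difference was not tested.

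To set Trdn beside others of like brightness, all transcript clusters were ordered by mean signal and divided into 10 classes of equal size. In the brightest class, which holds 17 of the Trdn ones, the median difference was 0.13, with 7.91% called lower and 22.2% called higher. In the class that holds 10362416 the median was 0.15 with 5.74% called lower, and in that of 10362454 it was 0.04 with 11.7% called lower. The difference lay below the median of its own class in 18 of the 19 Trdn transcript clusters, 10362432 being the exception.

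**Figure D3:**
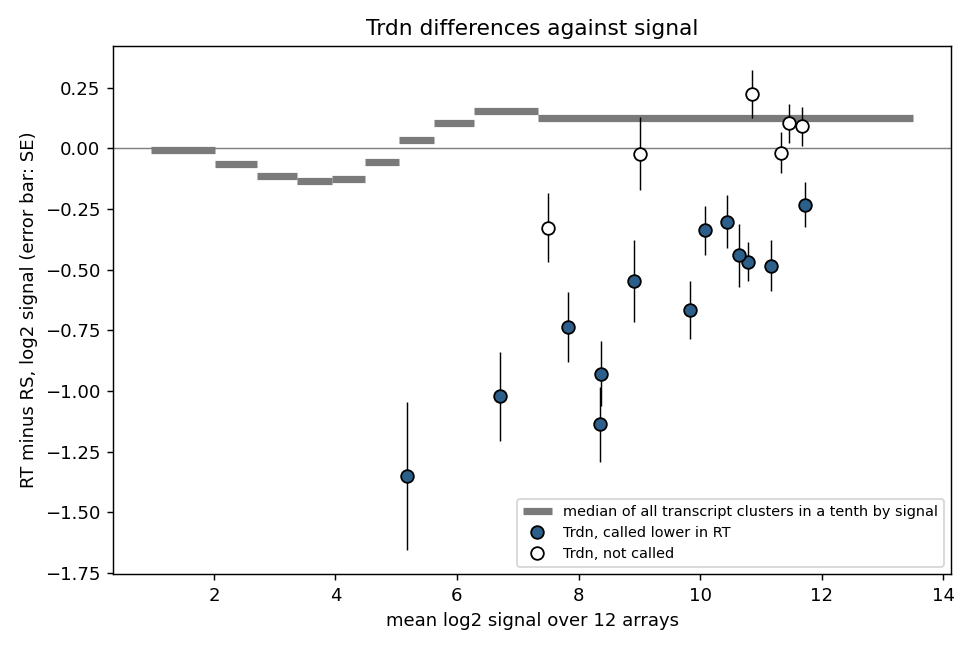
RT minus RS difference against mean log2 signal over 12 arrays for the 19 Trdn transcript clusters (points, with limma's standard error), and the median difference of all transcript clusters in each of 10 signal classes (grey bars). The Trdn points lie at −1.35 to 0.22, and all but 10362432 lie below the bar of their class.

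The mice of the RT group were unequal, and in the same way in most Trdn transcript clusters. The deviation from the RS mean, averaged over the 19, was −0.77 in RT-1, −0.68 in RT-2 and −0.13 in RT-6, with the other RT mice at −0.42 to −0.31. In RS mice it lay between −0.28, in RS-4, and 0.16, in RS-1. RT-1 was the lowest RT mouse in 13 transcript clusters and RT-6 the highest in 15. Over the 13 called lower the deviations were −1.04 to −0.30 in RT mice and −0.31 to 0.16 in RS mice, and the groups overlapped only in RT-6 and RS-4. Over the other 6 they were −0.17 to 0.22 in RT mice and −0.21 to 0.23 in RS mice, which overlapped. The 13 and the 6 were sorted by the same contrast, so nothing is read from how far the groups overlap in either.

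Variation between mice of a group was not used in choosing the gene and was tested. Each Trdn transcript cluster was correlated with the mean of the other 18 over the 6 RT mice and, apart from that, over the 6 RS mice, with exact two-sided permutation tests and adjustment over all 76 correlations. In RT mice Pearson's r was 0.759 to 0.988 with a median of 0.935, and 14 of the 19 had an adjusted p under 0.05. Spearman's rho in RT mice was 0.667 to 1.00, with 11 of 19 under that threshold. Other transcript clusters were not correlated with the Trdn mean within a group, so these counts have no share over the array beside them. Without the 2 mice farthest from the median, r in RT mice was 0.646 to 0.998 and above 0 in all 19. Transcript clusters that were not called between the groups were among these, such as 10362404 (r = 0.925 over 6 RT mice, exact permutation p = 0.010, adjusted p = 0.049) and 10362432 (r = 0.988, adjusted p = 0.032 by exact permutation).

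Over the 6 RS mice Pearson's r was −0.112 to 0.888 with a median of 0.567, 17 of the 19 were above 0, and 0 had an adjusted p under 0.05 by the exact permutation test, with 2 under 0.05 before adjustment. By Spearman's rho 1 passed, 10362428 (rho = 0.943). Without the 2 mice farthest from the median, r in RS mice was −0.777 to 0.947 and above 0 in 9. It fell in some, such as 10362456 (0.739 to −0.777), and rose in others, such as 10362428 (0.737 to 0.947). With so few mice left, what the relation in RS mice rests on cannot be told. Whether RT and RS mice differ in this agreement was not tested. All values of a mouse come from 1 array, and after a further quantile normalization 8 of 19 passed in RT mice and 0 in RS mice.

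**Figure D4:**
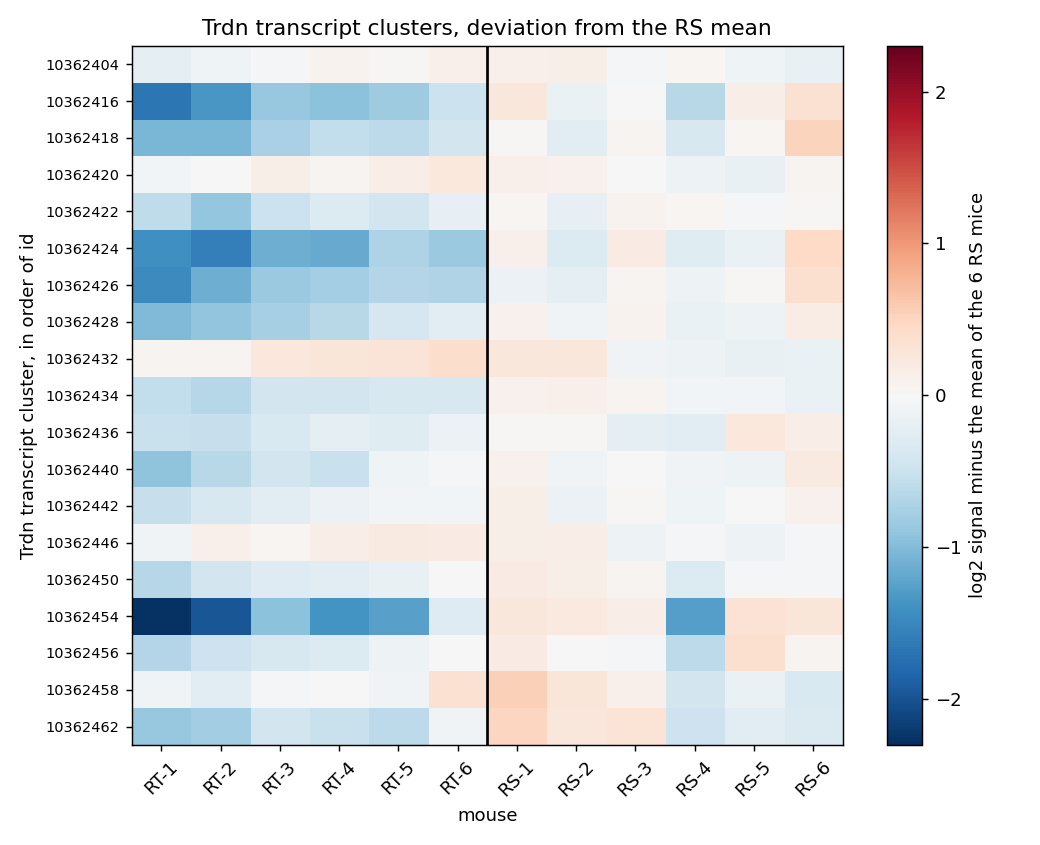
Deviation of each mouse (columns, RT left of RS) from the RS mean in each of the 19 Trdn transcript clusters (one line each, in identifier order), in log2 signal. RT-1 and RT-2 are low in most of them, with average deviations of −0.77 and −0.68, while RT-6 averages −0.13 and RS-4 is the lowest RS mouse at −0.28.

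For the release unit and the handling of its calcium, 28 listed genes were measured by a transcript cluster of a single symbol, the brightest standing for the gene. By limma 0 of the 28 were called lower, where 10.7% of all genes were, and 5 were called higher, where 13.9% of all genes were. At an unadjusted p under 0.05 in limma 0 were lower and 6 higher, and the methods' test called 0 lower. The difference was above 0 in 24 and below 0 in 4, with a median of 0.13 against 0.01 over all 19938 genes. Most of the list is bright, and the 22 genes in the brightest signal class had a median of 0.10 with 4 called higher, while that class as a whole had a median of 0.13 with 22.2% called higher. Tmem38b, a cation channel gene of the sarcoplasmic reticulum, differed by 0.09 and was not called, but its second and dimmer transcript cluster differed by −0.45 (SE 0.14) and was called lower (limma, adjusted p = 0.041). Without RS-4 and RS-6 only 1 of the 5, Sln, was still called higher. Of all 28944 transcript clusters 1649 were then called higher, against 3445 with all 12 arrays.

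Among the proteins that triadin binds, Ryr1, the release channel, averaged 10.75 ± 0.10 in RT mice and 10.70 ± 0.12 in RS mice (log2 signal, SD, n = 6 each). The difference was 0.05 with a 95% interval of −0.12 to 0.22 (limma, adjusted p = 0.684). Casq1, the calsequestrin of fast muscle, averaged 12.12 ± 0.08 in RT mice and 11.98 ± 0.17 in RS mice, a difference of 0.14 with an interval of −0.04 to 0.32 (limma, adjusted p = 0.278). Asph, whose locus encodes junctin among other proteins, was higher, at 7.51 ± 0.07 in RT mice and 7.22 ± 0.20 in RS mice, a difference of 0.30 (SE 0.09; limma, adjusted p = 0.042). With cyclic loess the difference was 0.16 and with quantile normalization 0.18, and neither was called.

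On the side of the transverse tubule, Cacna1s, the voltage sensor that faces the release channel, differed by 0.07 with an interval of −0.16 to 0.29 (limma, adjusted p = 0.694). Cacng1, a smaller subunit of the same complex, averaged 9.96 ± 0.13 in RT mice and 9.58 ± 0.38 in RS mice, and was called higher by 0.39 (SE 0.14; limma, adjusted p = 0.070). Jph1, which holds the membranes of the junction together, averaged 10.29 ± 0.17 in RT mice and 9.90 ± 0.24 in RS mice, and was called higher by 0.38 (SE 0.11; limma, adjusted p = 0.033), while its second transcript cluster differed by 0.17 and was not called. Calm2, a calmodulin gene, was called higher by 0.33 (SE 0.12; limma, adjusted p = 0.066), and its second transcript cluster differed by 0.05 and was not called. The call of Calm2 was lost on leaving out RT-1, RT-4, RS-4 or RS-6 alone, and that of Cacng1 on leaving out RT-2, RT-4, RT-6, RS-3, RS-4, RS-5 or RS-6 alone.

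Sln, which encodes the calcium pump inhibitor sarcolipin, was the only one of the 28 that was called without overlap of the groups, at 4.13 to 4.53 in RT mice and 3.51 to 4.04 in RS mice. It was higher by 0.48 (SE 0.10; limma, adjusted p = 0.009). Its signal was low, with means of 4.30 in RT mice and 3.82 in RS mice, where the arrays had medians of 4.40 to 4.63. In its signal class 5.60% of transcript clusters were called higher. The pump itself, Atp2a1, differed by 0.10 and was not called. The 4 genes with a difference below 0, none of them called, were Atp2a2, Jsrp1, Hrc and Fkbp1b. Atp2a2, the pump of slow fibers, varied most, and its difference of −0.26 had an interval of −0.90 to 0.38.

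**Figure D5:**
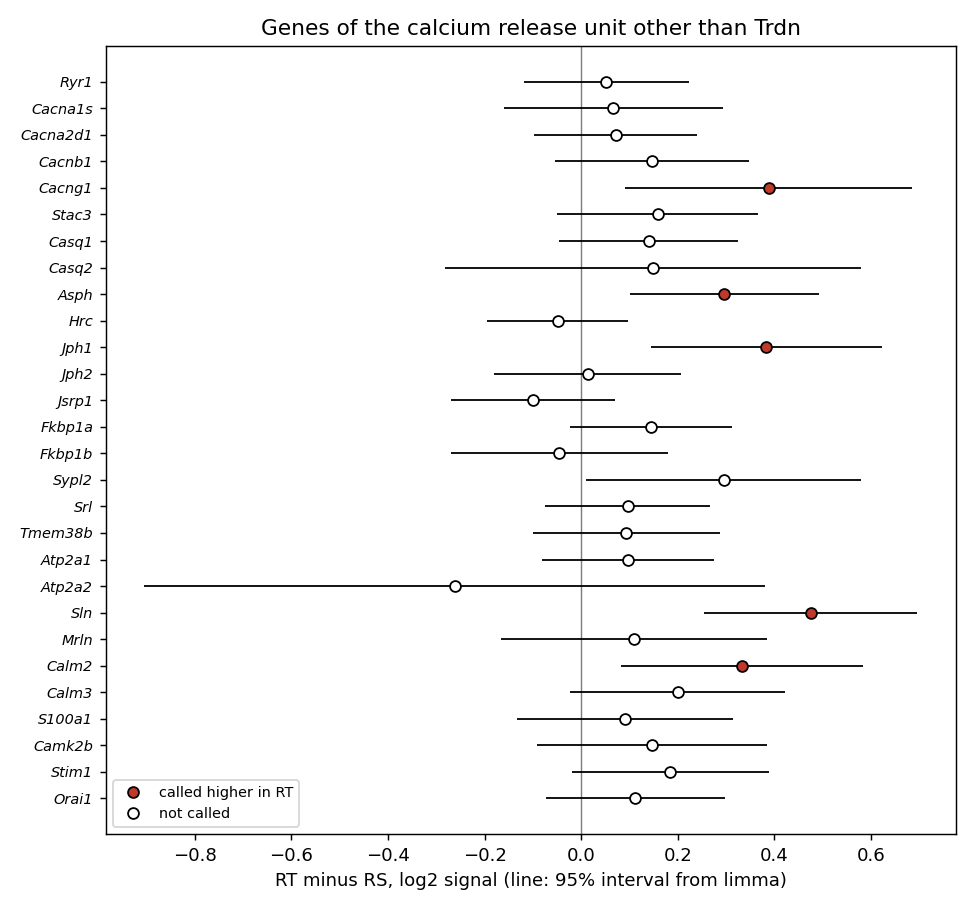
RT minus RS difference in mean log2 signal of the 28 measured calcium release genes, with 95% intervals from limma. Differences run from −0.26 in Atp2a2 to 0.48 in Sln, and 5 genes were called higher.

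Of all genes 13.9% were called higher and 10.7% lower, beside which the counts of marker lists are given. The fibroblast and matrix list had 8 of 8 genes called higher, with summed log2 levels of 12.49 to 12.83 in RT mice and 11.51 to 12.51 in RS mice. The macrophage list had 5 of 6 called higher, with 8.65 to 9.25 in RT mice and 7.45 to 8.51 in RS mice, and the adipocyte list 4 of 6, with 9.07 to 9.62 in RT mice and 8.57 to 9.10 in RS mice. No marker of these lists was at 0, as array signals have no true zero. Their part in the Trdn differences was not tested. The fast-twitch list, of which 0 genes were called, had a median difference of 0.06.

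Of the slow-twitch markers 0 were called higher and 1 of 7 lower (Myh7b), a number near the 10.7% of all genes, with a median difference of −0.44 and summed levels of 9.77 to 12.40 in RT mice and 11.04 to 12.84 in RS mice. RT-6, the RT mouse with the highest Trdn values in 15 transcript clusters, had the lowest slow-twitch mean of all 12 mice (6.61). It also had the highest adipocyte mean (6.32) and the lowest heart muscle mean (5.00). RT-1, the lowest RT mouse in 13 Trdn transcript clusters, had a slow-twitch mean of 8.62, beside 8.61 in RT-5. In RT-1 the adipocyte mean was 6.00, next below that of RT-6, and the heart muscle mean was 6.09, the highest of all 12 mice. RS-2, with a slow-twitch mean of 7.81, had an average Trdn deviation of 0.02. Heart muscle markers, listed because triadin forms differ between heart and skeletal muscle, had 0 of 5 called higher and 2 of 5 lower (Myh6 and Tnni3), with summed levels of 8.40 to 11.23 in RT mice and 8.84 to 10.52 in RS mice. The part of either list in the Trdn differences was not tested.

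The spread among the transcript clusters of one gene was wide for Trdn beside other genes that the array splits in this way. Of the 10 genes with at least 19 transcript clusters, Trdn included, Trdn had the widest range of differences, 1.58. It was followed by Hmcn1, a matrix protein gene, with a range of 0.84 over 77, of which 0 were called lower and 20 higher, and by Chd7, a chromatin remodeler gene, with 0.71 over 30, of which 3 were called lower. Trdn was also the brightest of the 10, with a median log2 signal of 10.1, against 4.2 in Hmcn1 and 5.7 in Chd7. Myo18b, the next brightest at 8.5, had a range of 0.70 over 20, of which 1 was called lower. What brightness has to do with the range was not tested. Trdn was chosen with its range in view, so its place at the head of these genes is a description.

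The genes beside Trdn on its chromosome were looked at in the same way, using the RefSeq gene table of GRCm38.p6 for their order only. On one side Nkain2, the nearest measured gene, differed by −0.35 and was called lower (limma, SE 0.10, adjusted p = 0.025), but its second transcript cluster differed by −0.06 and was not called (limma, adjusted p = 0.694). Rnf217 and Tpd52l1, next to it, differed by 0.06 and 0.03 and were not called. On the other side Clvs2 differed by −0.19 (limma, adjusted p = 0.145), Sult3a2 by −0.04 and Sult3a1 by −0.13, and none of these 3 was called. Of the genes that lie inside Trdn, 0 had a transcript cluster of their own symbol. One transcript cluster with no symbol, 10362448, carries an identifier among those of Trdn. It averaged 3.99 ± 0.46 in RT mice and 4.56 ± 0.54 in RS mice and was not called (limma, adjusted p = 0.104), and it was named here after its value was seen.

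With the group means removed, the genes whose signal followed that of 10362442, the brightest Trdn transcript cluster, over the 12 arrays were Nf2 (r = 0.888), Dph7 (0.880), Polr3gl (0.850), Dnajc21 (0.845) and Hsd17b7 (0.838). Those that ran most against it were Ube2dnl1 (−0.905), Chrm5 (−0.884) and Pard6g (−0.878). The 5 that followed it were not called between the groups, with differences of −0.07 to 0.11. When the mean of all 19 Trdn transcript clusters took the place of the brightest, 1 of the 5, Nf2, was again among the 5 most alike. These correlations are descriptions over arrays that share their depth of signal and carry no p. Between Trdn transcript clusters themselves, the median of such a correlation with the others was 0.449 to 0.788.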

How the data were processed

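The values are those of the deposited series matrix, in log2 units for 28944 transcript clusters, as summarized by the authors with RMA (robust multi-array average). The methods name Expression Console 1.3.0.187 in one paragraph and a variant in Transcriptome Analysis Console 4.0 in another. Groups were taken from the sample labels. Symbols came from the platform annotation, no genome build is named for the values, and the number of arrays limits the precision. All transcript clusters were fitted with limma 3.58.1 (lmFit, eBayes; R 4.3.3) as RT against RS, two-sided and without covariates, and the procedure was tested on simulated data. Genes other than Trdn with several transcript clusters were represented by their brightest. Exact permutation tests were run in Python 3.11.15 with SciPy 1.17.1. The sum of a marker list is the log2 of its summed linear signals.

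The transcript clusters and lists were chosen with earlier results of these data known. Named are every Trdn transcript cluster, the called calcium genes with Ryr1, Casq1, Asph and Cacna1s, 5 genes most and 3 least alike to the brightest Trdn transcript cluster, 3 measured neighbors on each side, and the 3 genes of widest range. Tmem38b, Atp2a1, Atp2a2, Jsrp1, Hrc, Fkbp1b, Myo18b and the calcium genes with a mouse set apart were named after their values were seen. Alternatives were a further quantile or cyclic loess normalization, median centering, leaving out the dimmest 33.3%, the methods' unmoderated test, eBayes with trend and robust, a replicate block, array spread as a covariate, and leaving out mice.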

Additional observations from a re-analysis of the deposited data

Results flagged for a closer look

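Among 94 sets of 6 values checked for a mouse far from the others (each Trdn transcript cluster and each of the 28 calcium genes, within a group), 4 passed Dixon's critical value, and chance lets about 1 in 20 sets pass it. In the dimmest Trdn transcript cluster, 10362454, RT mice read 3.57 to 5.55, while RS-4 read 4.59 and the other RS mice read 6.00 to 6.19. The gap between RS-4 and the next RS mouse took up 0.881 of the range of its group, and RS-4 lay among the RT mice. Of the calcium genes, Jph2 read 8.65 in RT-1 and 8.79 to 8.84 in the other RT mice. Fkbp1a read 6.62 in RS-6 and 6.89 to 6.98 in the other RS mice. Orai1 read 5.65 in RS-5 and 5.91 to 6.06 in the other RS mice.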

How the results depend on the processing

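The count of Trdn transcript clusters called lower, 13 as given, was 10 with the methods' test, 11 with median centering, 11 with array spread as a covariate, 12 without RS-4 and RS-6, 14 after cyclic loess and 11 to 14 on leaving out 1 mouse. The median difference over all 19 Trdn transcript clusters stayed between −0.54 and −0.34. The count called higher, 0 as given, was 1 with median centering and 0 to 1 on leaving out 1 mouse (1 without RS-1 and 1 without RS-2), in each case 10362432. Of single Trdn differences 1 moved by more than the spread between mice, that of 10362458, to −0.34 with array spread as a covariate, and 0 changed sign while called. Calcium genes called lower, 0 as given, were 1 (Jsrp1) after cyclic loess. Those called higher, 5 as given, were 9 with median centering, 3 after cyclic loess, 3 with the methods' test, 1 without RS-4 and RS-6 and 1 with the spread covariate, and 3 to 8 on leaving out 1 mouse (3 without RT-4, without RS-4 or without RS-6, and 8 without RS-1). The counts over all 28944 transcript clusters changed too. Called higher were 3445 as given, 5883 with median centering, 2770 after cyclic loess and 2928 with the methods' test. They were 1649 without RS-4 and RS-6, 732 with the spread covariate and 2360 to 4573 on leaving out 1 mouse. Called lower were 3764, 2414, 2816, 3039, 1791, 888 and 2564 to 4806 in the same order. The cause of these changes was not tested. Of the 5 genes most like the brightest Trdn transcript cluster, 1 was shared with the mean profile, and Trdn transcript clusters that agreed within RT mice numbered 8 in place of 14 after quantile normalization. Same-numbered mice of both groups were not paired, with correlations of −0.24 to 0.11 and 1 mouse closest to its own number, and with the number as a replicate block 11 Trdn transcript clusters were called lower and 5 calcium genes higher.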
